A study of Mus musculus with 36 samples.

Results

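Gsta3, Gm4956, Khdc1a, Khdc1c, Khdc1b and Kcnq5 lie next to each other on mouse chromosome 1, in that order, and were followed through all 4 deposited expression tables of a study of natural killer (NK) cells. They were chosen by their RNA levels, which had been seen lower in sorted NK cell subsets of B2m-knockout mice than of wild-type mice, and rows were matched by symbol. All 6 were found in each table, 6 of 32940 genes in the table of sorted splenic subsets and 6 of 56923 in each of the others. The Ensembl identifiers in the tables are ENSMUSG00000025934 for Gsta3, ENSMUSG00000025936 for Gm4956, ENSMUSG00000067750 for Khdc1a, ENSMUSG00000041722 for Khdc1c, ENSMUSG00000085079 for Khdc1b and ENSMUSG00000028033 for Kcnq5. The submitters' processing notes name the GRCm39 build, while the annotation used here is of GRCm38.p6, so gene order is given and gene coordinates are not. The order by symbol is the same in GENCODE vM21 and in RefSeq, although RefSeq lists Khdc1b and Khdc1c as synonyms of each other.

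RNA sequencing was done on 36 NK cell samples in 12 groups of 3, all labelled as biological replicates; ages, and whether a sample is 1 mouse or a pool, are not given in the sources used here. The subset table holds 18 samples of mature splenic NK cells, negative for CD27 and positive for CD11b, sorted by the inhibitory receptors Ly49C, Ly49I and NKG2A. TP cells carried all 3 receptors, SP cells carried Ly49I without Ly49C or NKG2A, and TN cells carried none of them. Each subset came from WT mice (B2m+/+, C57BL/6) and from B2m-/- mice, called KO, which lack the light chain of MHC class I. The ionomycin table holds NK cells purified from WT splenocytes after 22 hours with vehicle or with ionomycin, an ionophore that raises calcium in the cytosol. The antibody table holds splenic NK cells of WT mice after 48 hours without stimulation (medium) or on wells coated with a pair of antibodies to activating receptors, either to NKp46 plus NKG2D or to NKp46 plus DNAM-1. The tumour table holds CD27-negative, CD11b-positive NK cells taken from B2m-/- MC38 tumours (a mouse colon carcinoma line) that had grown under the skin of WT C57BL/6 mice for 10 days. All KO libraries came from B2m-/- mice and all WT libraries from C57BL/6 mice. The strain background of the B2m-/- mice is not given in the sources used here, so the loss of B2m and any other difference between these mice cannot be told apart.

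Khdc1a, Khdc1b and Khdc1c encode small proteins with a KH domain, a fold that binds RNA. The family is best known from oocytes and early embryos, and Khdc1a was also described in thymocytes as a target gene of the nuclear receptor Nur77. Gsta3 encodes an alpha-class glutathione S-transferase, an enzyme that joins glutathione to reactive compounds, and is known as a target of the oxidative stress factor NRF2. Kcnq5 encodes Kv7.5, a voltage-gated potassium channel known from neurons and smooth muscle, whose opening keeps the membrane potential negative. Gm4956 is annotated by GENCODE as a transcribed unprocessed pseudogene. GENCODE places Gm4956 and Kcnq5 on the minus strand and the other 4 genes on the plus strand.

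The start of the coding sequence of the Khdc1 genes is shown because it bears on whether their reads can be told apart. The first 120 bases of each coding sequence in GENCODE vM21 follow, 5′ to 3′, with the 3 positions that differ between the genes in capitals.
Khdc1a: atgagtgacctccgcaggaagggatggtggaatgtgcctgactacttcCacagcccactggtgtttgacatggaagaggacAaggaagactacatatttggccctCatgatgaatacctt
Khdc1c: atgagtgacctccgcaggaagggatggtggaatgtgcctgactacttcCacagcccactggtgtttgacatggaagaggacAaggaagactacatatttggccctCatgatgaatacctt
Khdc1b: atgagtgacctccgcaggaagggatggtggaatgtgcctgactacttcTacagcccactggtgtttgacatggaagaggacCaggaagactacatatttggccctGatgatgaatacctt
Counted from 1 at the first base of the start codon and with Khdc1a as the reference, Khdc1b differed in this stretch by C49T, A82C and C106G, and Khdc1c did not differ. Over the whole coding sequence Khdc1a and Khdc1c were identical at 497 of 498 bases, with T416C as the single difference. The Khdc1b coding sequence is shorter, at 378 bases, and matched Khdc1a at 354 of them (93.7%).

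Identical sequence was counted over whole transcripts as well. Of all 50-base stretches of the Khdc1a transcript, 42.2% were also present in Khdc1c, and 43.1% of those of Khdc1c were present in Khdc1a. The share stayed at 26.5% and 27.1% with 100-base stretches. For Khdc1b 3.66% of 50-base stretches were found in another gene, for Kcnq5 1.78%, for Gsta3 0.273% and for Gm4956 0. Values of Khdc1a and Khdc1c are therefore uncertain as a split between these genes, and their sum with Khdc1b is given beside them. No such limit was found for Gsta3, Gm4956 or Kcnq5, whose transcripts share few or no stretches with other genes.

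**Figure D1:**
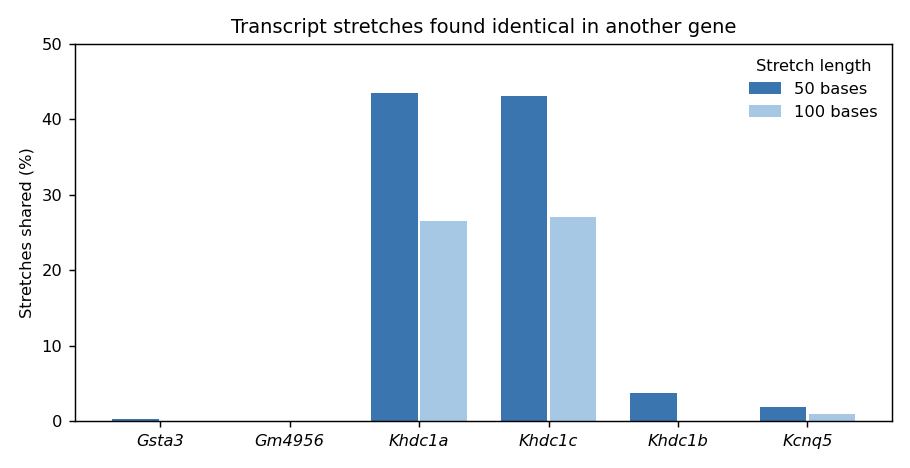
Share of transcript stretches found identical in any other gene. The horizontal axis gives the 6 genes in their order on the chromosome, the vertical axis the percentage of all 50-base (dark bars) and 100-base (light bars) stretches of the GENCODE vM21 transcripts of the gene. Khdc1a and Khdc1c stand above 40% with 50 bases, and the other 4 genes lie at or below 3.66%.

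Values are TPM, in which reads are divided by gene length and scaled to the same total in each library, so that levels of different genes can be compared within a library. The rows of the subset table, which lists only genes with a symbol, summed to between 934292 and 948786 TPM per library. Sequencing depth cannot be read from TPM and is unknown, and precision comes from the 3 replicates. Between 12290 and 18096 genes were above 0 per library. B2m lay between 2915 and 3420 TPM in the 9 WT libraries of the subset table and between 73.9 and 128 TPM in the 9 KO libraries, so each library matched its labelled genotype. All 9 NK markers on the list, such as Ncr1 and Klrb1c, averaged at least 1 TPM in every group. In the subset table the 7 neutrophil markers summed to between 61.0 and 217 TPM in KO TP cells, with Elane at 0, and to at most 5.85 TPM in each other group. The 8 B and plasma cell markers summed to between 404 and 683 TPM in KO TP cells and to between 167 and 337 TPM elsewhere in that table. The part of these other cells in the KO TP values was not tested. Bulk values cannot tell fewer expressing cells from less RNA per cell.

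In the subset table all 6 genes were lower in every KO library than in any WT library, in TP, SP and TN cells alike. Over all 12018 genes tested, 18.3%, 18.9% and 13.7% did not overlap between the genotypes in these subsets, in either direction. This contrast chose the genes, so the values that follow are a description without a test. Of 12018 genes tested, 0.607% were called lower in KO TP cells, 0.582% in KO SP cells and 0.291% in KO TN cells (limma on log2(TPM + 1), adjusted p under 0.05). Ranked by the mean KO minus WT difference over the subsets, Gm4956 was the lowest of all 12018 genes. Khdc1a was at rank 5, Khdc1b at 8, Khdc1c at 9, Gsta3 at 13 and Kcnq5 at 30. The log2(TPM + 1) scale understates differences of low genes, so these ranks depend partly on the level of a gene. The ratio of the WT to the KO mean was 13.4 for Gsta3 and 13.5 for Khdc1a.

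Gm4956, the pseudogene, had the highest level of the 6 genes in all 9 WT libraries and nearly none in KO. In WT it measured 379, 456 and 330 TPM in the TP replicates, 501, 465 and 383 TPM in SP, and 164, 134 and 120 TPM in TN. In KO it measured 0, 5.95 and 0.93 TPM in TP, 1.97, 1.82 and 3.38 TPM in SP, and 1.62, 0.32 and 1.96 TPM in TN. Every KO library thus stayed below 6 TPM while no WT library was under 120 TPM. The KO mean over 9 libraries was 0.612% of the WT mean. The log2 differences were -7.34, -7.07 and -6.00 for TP, SP and TN (SE 0.479 each).

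Khdc1a, the Nur77 target among the KH-domain genes, was the most abundant Khdc1 gene. In WT it measured 58.1, 76.2 and 53.0 TPM in TP, 82.7, 63.3 and 71.4 TPM in SP, and 76.6, 93.4 and 76.5 TPM in TN. In KO it measured 4.47, 4.15 and 5.54 TPM in TP, 6.77, 6.81 and 6.75 TPM in SP, and 4.75, 3.90 and 5.24 TPM in TN. WT values lay above 50 TPM and KO values below 7 TPM. The log2 differences were -3.46, -3.23 and -3.89 in TP, SP and TN (SE 0.185).

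Khdc1b, with the shortest coding sequence of the Khdc1 genes, showed the same order of genotypes at a lower level. In WT it measured 25.6, 21.6 and 21.0 TPM in TP, 25.1, 23.3 and 30.0 TPM in SP, and 30.2, 15.1 and 25.7 TPM in TN. In KO it measured 1.74, 2.56 and 3.29 TPM in TP, 1.55, 1.53 and 2.05 TPM in SP, and 1.44, 0.51 and 1.48 TPM in TN. No KO library reached 4 TPM. The log2 differences were -2.77, -3.32 and -3.51 (SE 0.299).

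Khdc1c, nearly identical to Khdc1a in its coding sequence, varied more between replicates. In WT it measured 19.7, 14.8 and 19.8 TPM in TP, 30.6, 42.6 and 27.7 TPM in SP, and 36.8, 12.4 and 30.1 TPM in TN. In KO it measured 4.11, 0.10 and 1.94 TPM in TP, 3.47, 2.48 and 3.69 TPM in SP, and 2.47, 0.64 and 1.13 TPM in TN. TN replicate 2 was the lowest WT library and was still above the highest KO library. The log2 differences were -2.89, -3.03 and -3.45 (SE 0.481).

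Because Khdc1a and Khdc1c share long identical stretches, the 3 Khdc1 genes were also summed. The sum averaged 122.6 ± 16.5 TPM (SD, n = 9) in WT libraries and 9.40 ± 2.46 TPM (SD, n = 9) in KO libraries, or 7.66% of the WT level. Khdc1a made up between 51.9% and 67.6% of the sum as the mean of any of the 12 groups. For TP cells its share was 60.2% ± 6.53 in WT and 51.9% ± 8.82 in KO (SD, n = 3). The WT and KO shares were 54.7% ± 5.43 and 58.1% ± 4.49 for SP cells and 62.8% ± 12.7 and 66.3% ± 11.2 for TN cells. In each subset the ranges of this share overlapped between the genotypes.

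Gsta3, the glutathione transferase, was the least abundant of the 6 genes in 7 of 9 WT and 8 of 9 KO libraries. In WT it measured 12.0, 5.17 and 5.62 TPM in TP, 9.75, 10.3 and 15.9 TPM in SP, and 4.69, 9.39 and 9.74 TPM in TN. In KO it measured 0.94, 0 and 0.58 TPM in TP, 1.13, 1.12 and 1.44 TPM in SP, and 0.32, 0 and 0.61 TPM in TN. It was listed at 0 in 2 KO libraries and in no WT library. The log2 differences were -2.48, -2.51 and -2.74 (SE 0.407).

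Kcnq5, the potassium channel gene, kept the highest share of its WT level in KO cells. In WT it measured 13.5, 11.3 and 11.3 TPM in TP, 12.1, 15.5 and 13.6 TPM in SP, and 11.6, 8.60 and 15.7 TPM in TN. In KO it measured 2.80, 3.76 and 3.35 TPM in TP, 3.66, 5.20 and 3.19 TPM in SP, and 2.08, 3.42 and 2.73 TPM in TN. All KO libraries showed some Kcnq5 RNA, and none reached the lowest WT library. The log2 differences were -1.60, -1.57 and -1.77 (SE 0.274).

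As a share of the WT mean over 9 libraries, KO levels were 7.43% for Khdc1a, 7.42% for Khdc1b, 7.45% for Gsta3 and 8.54% for Khdc1c. These pooled shares lie close together, although the WT means of these 4 genes ran from 9.16 TPM for Gsta3 to 72.4 TPM for Khdc1a. Within a subset the shares were further apart. They ran from 6.68% for Gsta3 to 11.3% for Khdc1c in TP, from 6.54% for Khdc1b to 10.3% for Gsta3 in SP, and from 3.90% for Gsta3 to 5.64% for Khdc1a in TN cells. Over all subsets Kcnq5 kept 26.7% and Gm4956 0.612%. The order of abundance also differed between the genotypes. Gm4956 was the highest of the 6 genes in 9 of 9 WT libraries, whereas Khdc1a was the highest in 8 of 9 KO libraries. The exception was KO TP replicate 2, in which Gm4956 led at 5.95 TPM.

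**Figure D2:**
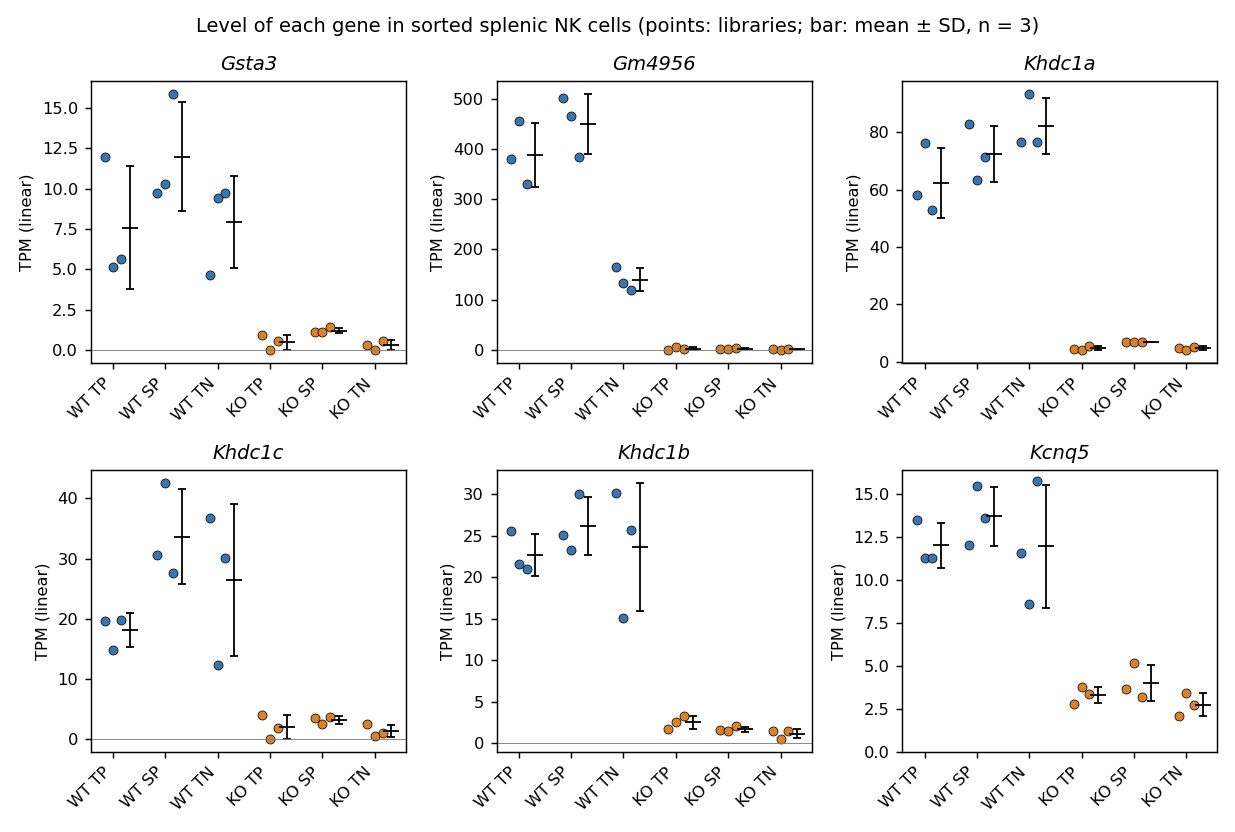
TPM of the 6 genes in sorted splenic NK cells. Each panel is 1 gene with TPM on a linear vertical axis and the 6 groups on the horizontal axis; points are libraries (blue WT, orange KO) and bars the mean ± SD of 3. In every panel all orange points lie below all blue points, and in the Gm4956 panel WT TN cells (120 to 164 TPM) lie below WT TP and SP cells (330 to 501 TPM).

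The neighbourhood on the chromosome was read from the RefSeq gene order, with 690 tested genes of chromosome 1 placed in it. No tested gene lies between the first and last of the 6 genes. Among the 10 tested genes on each side, none was called lower in KO cells in any subset (limma, adjusted p under 0.05). At an unadjusted p under 0.05 there were 5, 2 and 4 of the 20 in TP, SP and TN, in either direction. Over all 12018 genes tested these counts were 1421, 1403 and 1263. Tmem14a, the next tested gene before Gsta3, differed on the log2 scale by -0.52, -0.49 and -0.49 in the order TP, SP, TN, with adjusted p of 0.672, 0.691 and 0.726. Beyond Kcnq5 the next tested genes were Gm7658 and Ogfrl1, both with higher values in KO cells. Gm7658 differed by 1.56, 0.74 and 2.03 in TP, SP and TN (adjusted p 0.218, 0.640 and 0.127). Ogfrl1 was called higher in KO TN cells, at a log2 difference of 1.84 (adjusted p 0.0491), and was the only called gene of the 20. That call was lost in 8 of 9 alternative settings, among them each of the 6 with a library left out, at adjusted p up to 0.184.

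Further along, Gm10222 averaged 178 TPM in WT and 28.6 TPM in KO libraries, but with an SD of 308 TPM among the 9 WT libraries and no call in any subset. Over the 684 other tested genes of chromosome 1 the mean KO minus WT log2 difference had a median of 0.03 and ran from -2.96 for Ifi208 to 3.23. Differences below -1 were seen in 8 of them and above 1 in 9. The low values of the 6 genes sat between neighbours on both sides that were not called lower. This contrast also chose the 6 genes, so these neighbours are no test of where the low values end. Calls lower in KO were rare over all genes too, at 0.607%, 0.582% and 0.291% in TP, SP and TN.

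**Figure D3:**
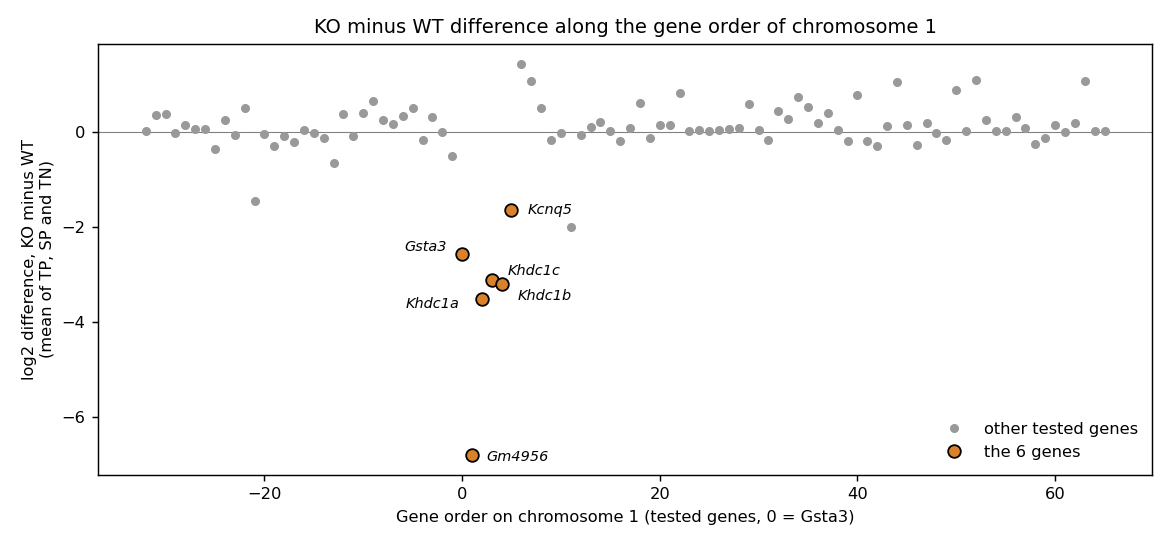
KO minus WT difference along part of chromosome 1. The horizontal axis counts tested genes in RefSeq order from Gsta3, the vertical axis is the log2(TPM + 1) difference averaged over TP, SP and TN cells; orange points are the 6 genes and grey points other tested genes. The 6 orange points run without a gap from Gsta3 to Kcnq5 below the grey points around zero; the grey point near -2 to their right is Gm10222.

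To find genes with the most similar pattern, the standardised log2 levels of the 6 genes were averaged and correlated with every other named gene over the 18 subset libraries. The closest were Arhgap31 (Pearson r = 0.989), Slc28a2 (0.986), B2m (0.985), Eps8l1 (0.967) and Ifi208 (0.959). These 18 points fall into the WT and KO clusters, so the values describe the genotype split and carry no test. Arhgap31, on chromosome 16, averaged 13.4 ± 2.20 TPM in WT and 0.251 ± 0.221 TPM in KO libraries (SD, n = 9). Slc28a2, a nucleoside transporter gene, averaged 191 ± 14.6 TPM in WT and 34.1 ± 3.30 TPM in KO libraries and lies on chromosome 2 with 4 tested genes between it and B2m. Eps8l1 on chromosome 7 averaged 64.9 ± 18.7 and 4.63 ± 2.61 TPM. Ifi208, an interferon-inducible gene on chromosome 1 with 556 tested genes between it and Kcnq5, averaged 51.2 ± 8.72 and 5.99 ± 2.10 TPM.

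Within the 9 WT libraries alone the 6 genes did not vary together as a block. Pearson r over their 15 pairs ran from -0.43 for Khdc1a with Gm4956 to 0.72 for Khdc1b with Khdc1c, with a median of 0.15. Khdc1c with Kcnq5 gave 0.71. Over these 9 libraries the nearest other genes were Tmem161b (r = 0.940), Zkscan7 (0.938), Socs6 (0.938), Pcbd2 (0.928) and Psmd11 (0.925). They are the highest values picked from all named genes over 9 points and carry no test. With the same mean the 6 genes themselves ran from -0.07 for Khdc1a to 0.80 for Kcnq5. None of the 5 nearest genes was among the 5 nearest over all 18 libraries, and all points share the same table and scaling.

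Differences between receptor subsets within WT mice were not used to choose the genes and could be tested. None of the 6 genes was called by limma in TN against TP, SP against TP or TN against SP cells. The counts at an unadjusted p under 0.05 were 2, 0 and 1, beside 1504, 927 and 1452 of all 12018 genes. Among all 12018 genes tested, 1.31%, 0.191% and 0.383% were called in these comparisons. Gm4956 showed the widest difference of the 6. Its means were 388 ± 63.2, 450 ± 60.2 and 139.6 ± 22.6 TPM for TP, SP and TN (SD, n = 3), and no TN library reached the TP or SP range. Over all genes tested 14.6% did not overlap between WT TN and TP cells and 11.4% between WT TN and SP cells. The log2 difference was -1.47 between TN and TP (SE 0.479, adjusted p 0.170) and -1.68 between TN and SP cells (SE 0.479, adjusted p 0.157). SP and TP cells overlapped (0.21, adjusted p 0.949).

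The call for Gm4956 depended on the samples that set the spread. In a fit of the WT groups alone, chosen after seeing the data, the SE was 0.163 and the adjusted p were 0.0104 for TN against TP and 0.0336 for TN against SP. With the 2 compared groups alone they were 0.0628 and 0.141. An exact two-sided permutation test gave p = 0.1 for each, the smallest that 3 samples against 3 allow. As a share of the summed TPM of the 6 genes, Gm4956 took 75.8% ± 1.83, 73.8% ± 2.70 and 47.7% ± 3.95 (SD, n = 3) in the same subset order.

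For the other 5 genes the WT subsets differed less. Khdc1a had means of 62.5 ± 12.2, 72.5 ± 9.78 and 82.1 ± 9.75 TPM for TP, SP and TN, and its TN libraries lay just above its TP libraries (log2 difference 0.40, SE 0.185, adjusted p 0.380). Khdc1c averaged 18.1 ± 2.83, 33.6 ± 7.92 and 26.4 ± 12.6 TPM in TP, SP and TN. Its SP libraries did not overlap TP (0.85, SE 0.481, adjusted p 0.696), as was so for 10.6% of all genes tested, in either direction. Khdc1b, at 22.7 ± 2.50, 26.2 ± 3.47 and 23.7 ± 7.76 TPM, overlapped in every pair, as did Kcnq5 at 12.0 ± 1.30, 13.7 ± 1.71 and 12.0 ± 3.58 TPM. Gsta3 averaged 7.58 ± 3.80, 12.0 ± 3.37 and 7.94 ± 2.82 TPM, with TN libraries just under SP (-0.56, SE 0.407, adjusted p 0.619).

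Within KO mice none of the 6 genes was called in TN against TP, SP against TP or TN against SP cells (limma). At an unadjusted p under 0.05 there was 1 gene in each, beside 773, 352 and 333 of all 12018 genes. The count of 6 includes Gsta3, from which nothing is read here. The shares of all genes called were 0.524%, 0.2% and 0.0416%. Gm4956 averaged 2.29 ± 3.20, 2.39 ± 0.861 and 1.30 ± 0.866 TPM for KO TP, SP and TN, so the lower level of TN cells seen in WT could not be assessed at these values. Khdc1a was at 4.72 ± 0.728, 6.78 ± 0.0306 and 4.63 ± 0.678 TPM in KO TP, SP and TN, with every SP library above every TP and TN library (0.45 against TP and -0.47 for TN against SP, SE 0.185, adjusted p 1 for both). In KO TN against SP cells Khdc1b and Khdc1c did not overlap either, both with lower TN values. Khdc1a and Khdc1c share long identical stretches, so their values are not independent. Over all genes tested 10.9% did not overlap in KO SP against TP and 10.9% in KO TN against SP, in either direction. Gsta3 averaged 0.682 TPM over the 9 KO libraries and passed the filter of 1 TPM through the WT libraries, so nothing is read from its KO subsets. Khdc1b lay between 1.74 and 3.29 TPM with KO TP cells and between 0.51 and 1.48 TPM with KO TN cells (-0.73, SE 0.299, adjusted p 0.669). Over all genes tested 13.2% did not overlap between KO TN and TP cells.

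Ionomycin gave the single call among the 60 tests of the 6 genes in 10 comparisons. Kcnq5, the potassium channel gene, measured 22.3, 19.6 and 24.7 TPM in the vehicle replicates and 69.1, 86.9 and 73.5 TPM in the ionomycin replicates. The groups did not overlap, with every ionomycin library higher than every vehicle library. Over all genes tested 20.1% did not overlap here, in either direction. Kcnq5 rose by 1.74 on the log2 scale (SE 0.266, adjusted p 0.0131, limma), from 22.2 ± 2.56 to 76.5 ± 9.25 TPM (SD, n = 3). In this comparison 2.91% of 14372 genes tested were called. The exact permutation p was 0.1, the smallest possible here.

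The direction of the Kcnq5 rise held with each library left out, but its call did not. Without ionomycin replicate 1, 2 or 3 the adjusted p was 0.0932, 0.120 and 0.134, and without vehicle replicate 2 it was 0.0804, at log2 changes between 1.65 and 1.81. Without the intensity trend it was 0.0502. NK markers summed to between 7756 and 13280 TPM in vehicle and between 5735 and 7185 TPM in ionomycin libraries. Neutrophil markers reached 349 TPM in a vehicle library and 119 TPM in an ionomycin library, and T cell markers ran from 2.24 to 7.87 and from 13.2 to 25.3 TPM. The part of these shifts in the Kcnq5 difference was not tested.

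The other 5 genes were not called with ionomycin. Khdc1a measured 22.1, 42.9 and 17.7 TPM with vehicle and 21.9, 19.3 and 23.3 TPM with ionomycin (-0.25, SE 0.395, adjusted p 0.830), and vehicle replicate 2 stood above the rest. Khdc1b averaged 5.27 ± 1.40 and 4.15 ± 1.19 TPM, and Khdc1c 8.89 ± 6.04 and 9.93 ± 1.13 TPM. Gm4956 measured 2.33, 9.82 and 0 TPM with vehicle and 16.3, 8.75 and 20.8 TPM with ionomycin. These ranges overlapped, and the log2 difference was 2.22 (SE 0.856, adjusted p 0.264). Gsta3 lay between 0 and 4.06 TPM over the 6 libraries. Kcnq5 was the highest of the 6 genes in all 3 ionomycin libraries, at 59.4% ± 7.84 of their sum, and in 2 of 3 vehicle libraries, at 34.4% ± 12.3 (SD, n = 3).

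The upstream sequence of Kcnq5 is shown beside its rise, since calcium entry is known to activate NFAT factors, whose core site reads GGAAAA. The first of the RefSeq promoters of Kcnq5 (GRCm38.p6, chr1:21962601-21962900, minus strand) covers 250 bases before and 50 bases after the start and holds this core once on the reverse strand, in capitals, at position -59.
Kcnq5 promoter: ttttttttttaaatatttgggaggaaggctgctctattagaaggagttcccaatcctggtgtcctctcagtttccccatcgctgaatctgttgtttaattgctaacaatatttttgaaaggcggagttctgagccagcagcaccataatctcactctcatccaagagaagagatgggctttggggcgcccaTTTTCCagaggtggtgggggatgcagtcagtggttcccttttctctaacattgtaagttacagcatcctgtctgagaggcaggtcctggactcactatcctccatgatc
The other Kcnq5 promoter in that table holds no GGAAAA in its window. Searched on both strands, this core occurs in 23.4% of 32851 promoters, so its presence is common and describes only these letters. Gsta3 and Khdc1b had a RefSeq promoter too. That of Khdc1b holds GGAAAA once, at position 24, and Khdc1b was not called with ionomycin (log2 difference -0.28). The promoter of Gsta3 is shown for the core of the antioxidant response element, TGACNNNGC, to which NRF2 binds (GRCm38.p6, chr1:21240335-21240634, plus strand).
Gsta3 promoter: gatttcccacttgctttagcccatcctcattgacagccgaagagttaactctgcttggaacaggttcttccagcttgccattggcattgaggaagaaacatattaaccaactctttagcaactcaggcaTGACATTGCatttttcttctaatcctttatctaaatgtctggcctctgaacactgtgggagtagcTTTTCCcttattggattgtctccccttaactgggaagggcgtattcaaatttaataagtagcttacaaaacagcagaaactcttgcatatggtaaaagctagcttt
The capitals mark that core at -121 and a reverse-strand GGAAAA at -56; the antioxidant core occurs in 12.4% of promoters. None of the promoters found for these 3 genes held TGANTCA (the AP-1 site), GGTGTGA (T-box), TGTGGTT (RUNX) or CCGGAAG (ETS), which occur in 7.81%, 3.98%, 5.27% and 8.86% of promoters. No promoter entry matched Khdc1a, Khdc1c or Gm4956.

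Antibody stimulation gave no call for the 6 genes. The shares of all 13689 genes called were 0.431% for NKp46 with NKG2D against medium, 0.782% for NKp46 with DNAM-1 against medium and 0.0146% between the antibody pairs (limma). At an unadjusted p under 0.05 there were 1, 0 and 0 of the 6 genes, beside 2069, 2458 and 167 of all 13689. That gene was Khdc1c, with 13.8, 22.4 and 17.5 TPM in medium and 30.0, 25.8 and 27.5 TPM with antibodies to NKp46 and NKG2D. These groups did not overlap, and the log2 difference was 0.63 (SE 0.212, adjusted p 0.220). Over all genes tested 17.3% did not overlap in this comparison, and with groups taken from the sample titles the Khdc1c difference was 0.23 (adjusted p 0.967). With antibodies to NKp46 and DNAM-1 it measured 19.0, 22.4 and 23.4 TPM, within reach of the medium libraries (0.28, SE 0.212, adjusted p 0.529).

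The others overlapped between each antibody pair and medium, 2 comparisons that share the medium libraries. In the order medium, NKG2D pair, DNAM-1 pair, the Khdc1a means were 66.2 ± 20.4, 61.8 ± 6.21 and 57.2 ± 4.87 TPM. Khdc1b averaged 12.6 ± 4.68, 12.7 ± 2.31 and 12.3 ± 0.979 TPM, and Kcnq5 27.0 ± 2.65, 21.1 ± 4.07 and 23.1 ± 2.41 TPM in the same order. Kcnq5, the gene that rose with ionomycin, thus had its highest mean in medium (-0.35, SE 0.196, adjusted p 0.426 for NKp46 with NKG2D; -0.21, SE 0.196, adjusted p 0.606 for NKp46 with DNAM-1). Gsta3 averaged 5.67 ± 2.90, 3.54 ± 0.732 and 3.72 ± 0.990 TPM. Gm4956 varied widely within groups, with 0, 21.2 and 0 TPM for medium, 27.8, 19.9 and 1.44 TPM for the NKG2D pair, and 4.74, 16.1 and 4.70 TPM for the DNAM-1 pair. Groups follow the table's column names, which differ from the titles for 6 of 9 of these samples.

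**Figure D4:**
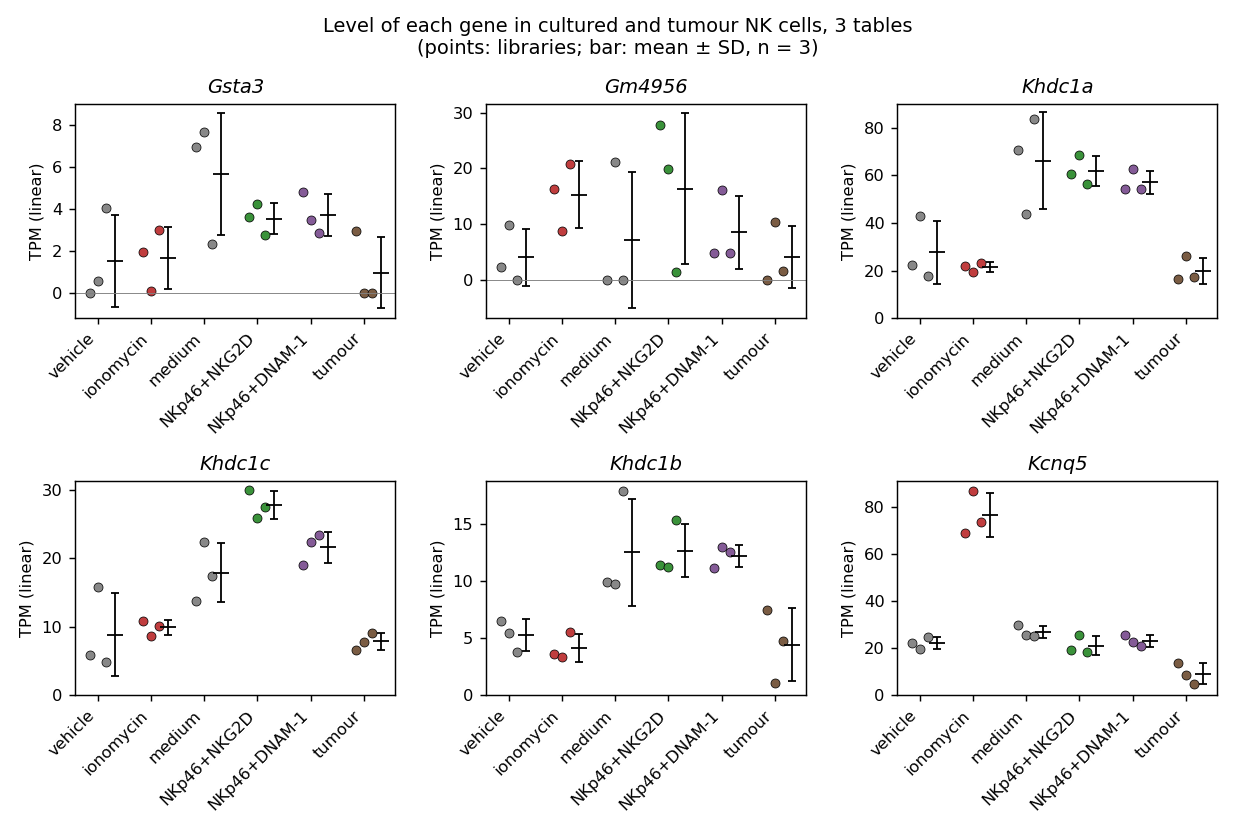
TPM of the 6 genes in the ionomycin, antibody and tumour tables. Each panel is 1 gene with TPM on a linear vertical axis and groups on the horizontal axis; points are libraries and bars the mean ± SD of 3. The tables were scaled separately and groups are compared within a table only; in the Kcnq5 panel the ionomycin libraries (69.1 to 86.9 TPM) lie above vehicle (19.6 to 24.7 TPM).

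In NK cells from tumours, which have no control group in their table, Khdc1a measured 16.3, 26.0 and 17.2 TPM, Khdc1b 7.48, 1.11 and 4.78 TPM, and Khdc1c 6.65, 7.79 and 9.18 TPM. All 3 Khdc1 genes were thus detected in each tumour library, and Khdc1a was the highest of the 6 genes in all 3. Kcnq5 measured 13.9, 8.47 and 5.03 TPM, and Gm4956 0, 10.4 and 1.56 TPM. Gsta3 was above 0 in the first library alone (2.94 TPM) and was the 1 gene of the 6 with a mean under 1 TPM in a table. B2m lay between 3929 and 5196 TPM there, although the column names carry B2MKO and SP, terms the sample titles do not explain; SP is also the name of a sorted splenic subset above. Their titles and genotype label, WT, were followed. In the tumour libraries NK markers summed to between 9779 and 10339 TPM. Colon carcinoma or stroma markers summed to between 128 and 1020 TPM, erythroid markers to at most 335 TPM, and macrophage and monocyte markers to between 39.9 and 90.5 TPM. The carcinoma or stroma list is not specific to the tumour. It summed to between 117 and 283 TPM in the vehicle libraries of splenic NK cells, all of it from Pecam1. The part of RNA from other cells in the values of the 6 genes was not tested.

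Side by side, the leading gene was not the same in every table. Gm4956 led in 9 of 9 WT libraries of freshly sorted subsets. In the other tables, whose cells were from WT mice, it led in none of the 18 libraries. Khdc1a led in 9 of 9 antibody and 3 of 3 tumour libraries, and Kcnq5 led in 5 of 6 ionomycin libraries. Cells, sorting, culture and the making of the tables all differ between them. Only the order of the 6 genes within a library is read here, TPM are not compared between tables, and no test was run.

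Lists of genes related to the 6 by function were read in the same comparisons. Over all genes, the fewest at an unadjusted p under 0.05 (limma) were 167 of 13689, between the antibody pairs. The most were 2458 of 13689, for NKp46 with DNAM-1 against medium. Of 27 other glutathione transferase genes on the list, 13 to 15 were tested, and limma called none in any of 13 comparisons (0 to 5 at an unadjusted p under 0.05). Their median KO minus WT log2 differences were 0.19 in TP, 0.02 in SP and 0.05 in TN, beside 0.04, 0.03 and 0.02 over all genes. Of 17 NRF2 targets 14 or 15 were tested, with 0 to 7 at an unadjusted p under 0.05 in a comparison, and the 1 call was Txnrd1, the thioredoxin reductase gene, which fell by 1.59 on the log2 scale with ionomycin, from 122 ± 15.1 to 39.7 ± 2.77 TPM (adjusted p 0.0111). That call was lost without each ionomycin library, without vehicle replicate 2 and without the trend (adjusted p up to 0.104). Of 15 other genes known from germ cells and early embryos, some of them with KH domains, 2 to 4 were tested and none was called (0 or 1 at an unadjusted p under 0.05).

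Among 23 other potassium channel genes and subunits, 7 or 8 were tested, and 5 calls fell on Kcnk5 and Kcnj8. At an unadjusted p under 0.05 there were 0 to 5 in a comparison. The 5 were of 7 tested with ionomycin, in either direction, beside 2169 of all 14372 genes. The calls were 2 of 8 in WT TN against TP cells, beside 1.31% of all genes, and 1 of 7 with ionomycin, beside 2.91%. The list was chosen with earlier results of these data known, so these shares and the medians below are no test of the list. Kcnk5, which encodes a background potassium channel, rose with ionomycin like Kcnq5, from 11.7 ± 6.17 to 91.2 ± 4.66 TPM (log2 change 2.98, SE 0.396, adjusted p 0.00794), a call lost without any of the 3 ionomycin libraries or vehicle replicate 2 (adjusted p up to 0.139). It was also higher in WT TN than in WT TP cells (0.92, adjusted p 0.0360), a call lost in 10 of 14 alternatives. Kcnj8, which encodes the pore of an ATP-sensitive potassium channel, was lower in TN than in TP cells in WT (-2.21, adjusted p 1.95e-07) and in KO (-1.34, adjusted p 0.000142). Its WT means were 166 ± 20.8, 97.1 ± 12.2 and 35.8 ± 9.64 TPM for TP, SP and TN (TN against SP -1.44, adjusted p 0.000282). The WT calls were lost with only the 2 compared groups fitted (adjusted p 0.0505 against TP and 0.362 against SP). The call against SP was also lost with only the WT groups fitted (adjusted p 0.101). With ionomycin the tested channel genes had a median log2 change of 0.94, against 0.00 over all genes. Kcnj8 went the other way without a call, from 31.3 ± 27.3 TPM with vehicle to 6.48 ± 3.41 TPM with ionomycin (SD, n = 3). None of the tested channel genes was called between KO and WT in any subset, at medians of 0.28, 0.13 and 0.05 in TP, SP and TN.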

How the data were processed

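The authors deposited 4 tables of gene-level TPM, 1 each for the subset, ionomycin, antibody and tumour experiments. Per the submitters' processing notes, STAR and RSEM were used with the GRCm39 build; their versions and the annotation are not given in the sources used here. Per the labels' protocols, libraries were made from total RNA with an mRNA kit. TPM keep no depth, and RSEM divides reads shared by similar genes between them by estimation, which bears on Khdc1a and Khdc1c. The subset table lists only genes with a symbol.

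Tests were run on log2(TPM + 1), a scale that understates differences of low genes. Genes averaging 1 TPM or more over a table entered limma 3.58.1 in R 4.3.3, with 1 mean per group, an intensity trend, no block, two-sided tests and Benjamini-Hochberg adjustment within each of 10 comparisons; calls were made at an adjusted p under 0.05. All 6 genes passed this filter in the 3 tables with tests. KO minus WT differences were described only. The procedure was tested on simulated data. Antibody groups follow column names. Shared stretches, coding identity (Biopython 1.88 with Python 3.11.15) and strands came from GENCODE vM21, and promoters and gene order from RefSeq GRCm38.p6. Replicate numbers were treated as unpaired, since the labels do not say that a number marks a mouse.

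The genes named were the 6 genes, the 10 nearest tested genes on each side, the 5 most similar other genes by correlation, and called genes of 4 lists; Gm10222 is among those neighbours. The 6 genes and the lists were chosen with earlier results of these data known. Alternatives covered the pseudocount, filter, scaling, trend, groups in the fit, block, titles in place of column names, and leaving out each library.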

Additional observations from a re-analysis of the deposited data

How the results depend on the processing

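The number of the 6 genes called was 0 in 9 comparisons and 1 with ionomycin. It became 1 in WT TN against TP and 1 in WT TN against SP with only the WT groups in the fit, in both cases Gm4956. That setting was chosen after seeing the data, and its shared spread came from fewer samples. It leaves out the KO libraries, where Gm4956 lay between 0 and 5.95 TPM, and the SE of Gm4956 went from 0.479 to 0.163. Calls over all genes fell there from 157 to 48 for TN against TP and from 46 to 4 for TN against SP. For ionomycin the number of the 6 genes called became 0 without the variance trend. With each library left out, where fewer samples were fitted, it ran from 0 to 1. Of 828 values of the 60 tested changes under alternatives, 768 kept direction and side of the threshold, 5 lost the call, 2 gained it and 53 had the opposite sign, none of them called. No KO minus WT difference changed sign; a pseudocount of 0.1 enlarged them, for Gsta3 in TN from -2.74 to -4.62 and for Gm4956 in TP from -7.34 to -8.82.

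The count of all genes called moved more: with ionomycin from 418 to 3 without ionomycin replicate 2, in WT TN against TP from 157 to 21 and in WT TN against SP from 46 to 2 with only the compared groups fitted. With groups from the titles it moved from 59 to 0 for NKp46 with NKG2D and from 107 to 1 for NKp46 with DNAM-1, with 0 of the 6 genes called.

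Same-numbered libraries deviated together little: 0 of 18 pairs in the subset table, 1 of 3 in the ionomycin table and 1 of 9 in the antibody table had a correlation over 0.1. With replicate number as a replicate block the Kcnq5 change with ionomycin stayed at 1.74 (SE 0.296, adjusted p 0.0284), and no call of the 6 genes changed. The block moved all calls from 59 to 239 and from 107 to 528 for the antibody pairs against medium. Depth is unknown, so the counting error of values near 0 TPM cannot be estimated.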
